A study of Mus musculus with 13 samples.

Results

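Peroxiredoxins, thioredoxin and superoxide dismutases are the enzymes with which a cell disposes of superoxide and hydrogen peroxide. The 10 genes described here, Prdx1, Prdx2, Prdx3, Prdx4, Prdx5, Prdx6, Txn1, Txnrd1, Sod1 and Sod2, were taken by their symbols from the 55291 gene symbols of the count tables, and all 10 had enough counts to be tested. Each library came from the CA1 region of a single mouse entorhino-hippocampal slice culture of wildtype C57BL/6 animals, prepared at postnatal day 4 to 5 and matured in vitro for 18 days or more. The groups were non-lesioned controls (n = 5), cultures (n = 4) with a Schaffer collateral lesion (SCL), in which the axons from CA3 to CA1 were cut, and cultures (n = 4) with an entorhinal cortex lesion (ECL), in which the perforant path was cut. Lesioned cultures were taken 3 days after the cut, and the study used them to ask how CA1 adapts to the loss of each input. The controls were not cut at all, so the loss of a given input and the mechanical cut itself cannot be told apart.

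Superoxide arises mainly from the mitochondrial respiratory chain and from NADPH oxidases. Superoxide dismutases convert it to hydrogen peroxide, Sod1 with copper and zinc in the cytosol and Sod2 with manganese in mitochondria. Peroxiredoxins reduce hydrogen peroxide with a reactive cysteine, and most of them are then returned to the active form by thioredoxin, which thioredoxin reductase recharges at the cost of NADPH. In the brain Prdx2 is known mainly from neurons and Prdx6 mainly from astrocytes. Many of these genes can be induced through NRF2, a transcription factor that binds the antioxidant response element.

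The 300 bases around the transcript start are shown for Prdx1, Txn1 and Sod1, since the first 2 were higher and the third lower after both lesions. The sequences are from RefSeq on GRCm38.p6, run from 250 bases before to 50 bases after the start, and are written in the direction of the gene. Capitals mark matches to the core of the antioxidant response element (TGACNNNGC) or to the GC box (GGGCGG) on either strand.
Prdx1, chr4:116685349-116685648, plus strand: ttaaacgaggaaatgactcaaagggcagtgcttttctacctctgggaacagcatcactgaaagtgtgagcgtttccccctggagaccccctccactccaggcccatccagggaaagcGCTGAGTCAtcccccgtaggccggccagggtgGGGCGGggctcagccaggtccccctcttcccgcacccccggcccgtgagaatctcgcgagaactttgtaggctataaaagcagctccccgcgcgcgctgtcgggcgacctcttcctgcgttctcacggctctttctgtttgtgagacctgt
Txn1, chr4:57956362-57956661, minus strand: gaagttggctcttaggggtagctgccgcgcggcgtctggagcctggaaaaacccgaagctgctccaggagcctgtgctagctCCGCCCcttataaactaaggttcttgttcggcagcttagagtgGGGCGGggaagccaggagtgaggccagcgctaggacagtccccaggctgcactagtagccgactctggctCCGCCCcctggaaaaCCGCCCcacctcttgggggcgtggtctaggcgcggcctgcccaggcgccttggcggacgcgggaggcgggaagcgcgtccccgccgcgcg
Sod1, chr16:90220512-90220811, plus strand: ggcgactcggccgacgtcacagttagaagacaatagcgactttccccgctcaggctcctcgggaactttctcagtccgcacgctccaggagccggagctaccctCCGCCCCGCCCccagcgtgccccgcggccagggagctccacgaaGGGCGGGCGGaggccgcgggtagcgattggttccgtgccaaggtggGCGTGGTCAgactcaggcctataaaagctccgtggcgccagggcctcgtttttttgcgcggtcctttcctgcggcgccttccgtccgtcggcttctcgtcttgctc

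The RefSeq table held windows for 9 of the 10 genes. The element core occurred in the windows of 3 genes, and in 12.4% of all 32851 windows of this length. It began at position -133 in Prdx1, -92 in Txnrd1 and -56 in Sod1, each time on the strand opposite to the gene, so it was found both in a gene that was higher and in a gene that was lower after the lesions. In Prdx1 the core overlapped an AP-1 site (TGANTCA) at -131, and a second AP-1 site, left in lower case, began at -237. AP-1 sites occurred in 7.81% of all windows and in no other of the 9 genes. The GC box occurred in the windows of all 9 genes and in 35.7% of all windows. These matches describe the letters of the windows, and binding was not measured.

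The libraries held between 14371152 and 56786613 counts, with medians of 18225356 in controls, 33773026.5 after SCL and 23291778 after ECL. The counts of the 10 genes ranged from 645 to 79022 per library, and the values below are CPM, the counts relative to library sizes scaled by TMM factors over all 13 libraries. Control replicate 4 lay farthest from the other libraries on the first principal component, at -68.9 against -48.4 to -17.9 in the other controls. Values without it are given for Prdx2, Txn1, Sod1 and Ybx1, and those of other genes may depend on it too. Across all genes, 24.6% of the 11733 tested after SCL and 27.6% of the 11392 tested after ECL passed an adjusted p of 0.05 (edgeR quasi-likelihood test, Benjamini-Hochberg adjustment over all genes tested). Of those calls 52.9% were higher after SCL and 54.9% after ECL. With TMM factors taken over all symbols the shares were 80.9% and 78.0%, and the median of all genes moved from 0.01 to 0.21 and from -0.01 to 0.18 on the log2 scale.

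In CA1 after either lesion, Prdx1, Prdx2, Prdx4, Prdx6 and Txn1 were higher than in controls and Sod1 was lower. Their products lie in the cytosol or, for Prdx4, in the endoplasmic reticulum. Txnrd1, also cytosolic, and the genes of mitochondrial enzymes, Prdx3, Prdx5 and Sod2, were not called in either comparison, although Prdx3 was called after both lesions with TMM factors over all symbols (0.57 and 0.53 on the log2 scale, adjusted p = 0.0336 and 0.0494, edgeR). A difference between compartments was not tested, and Txn2, the mitochondrial thioredoxin described below, was called higher after both lesions. After SCL 5 of the 10 genes were called higher, against 13% of all genes tested, and 1 was called lower, against 11.6%. After ECL the counts were again 5 and 1, against 15.1% and 12.4%. The median log2 fold change of the 10 genes was 0.48 after SCL and 0.52 after ECL, beside 0.01 and -0.01 over all genes tested. After SCL 6 genes lay higher in every lesioned library than in every control, against 11.9% of all genes tested, and 1 lower, against 11.4%. After ECL 5 lay higher, against 12.8%, and 1 lower, against 12.1%. Both comparisons used the same 5 controls, so they do not give independent counts.

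**Figure D1:**
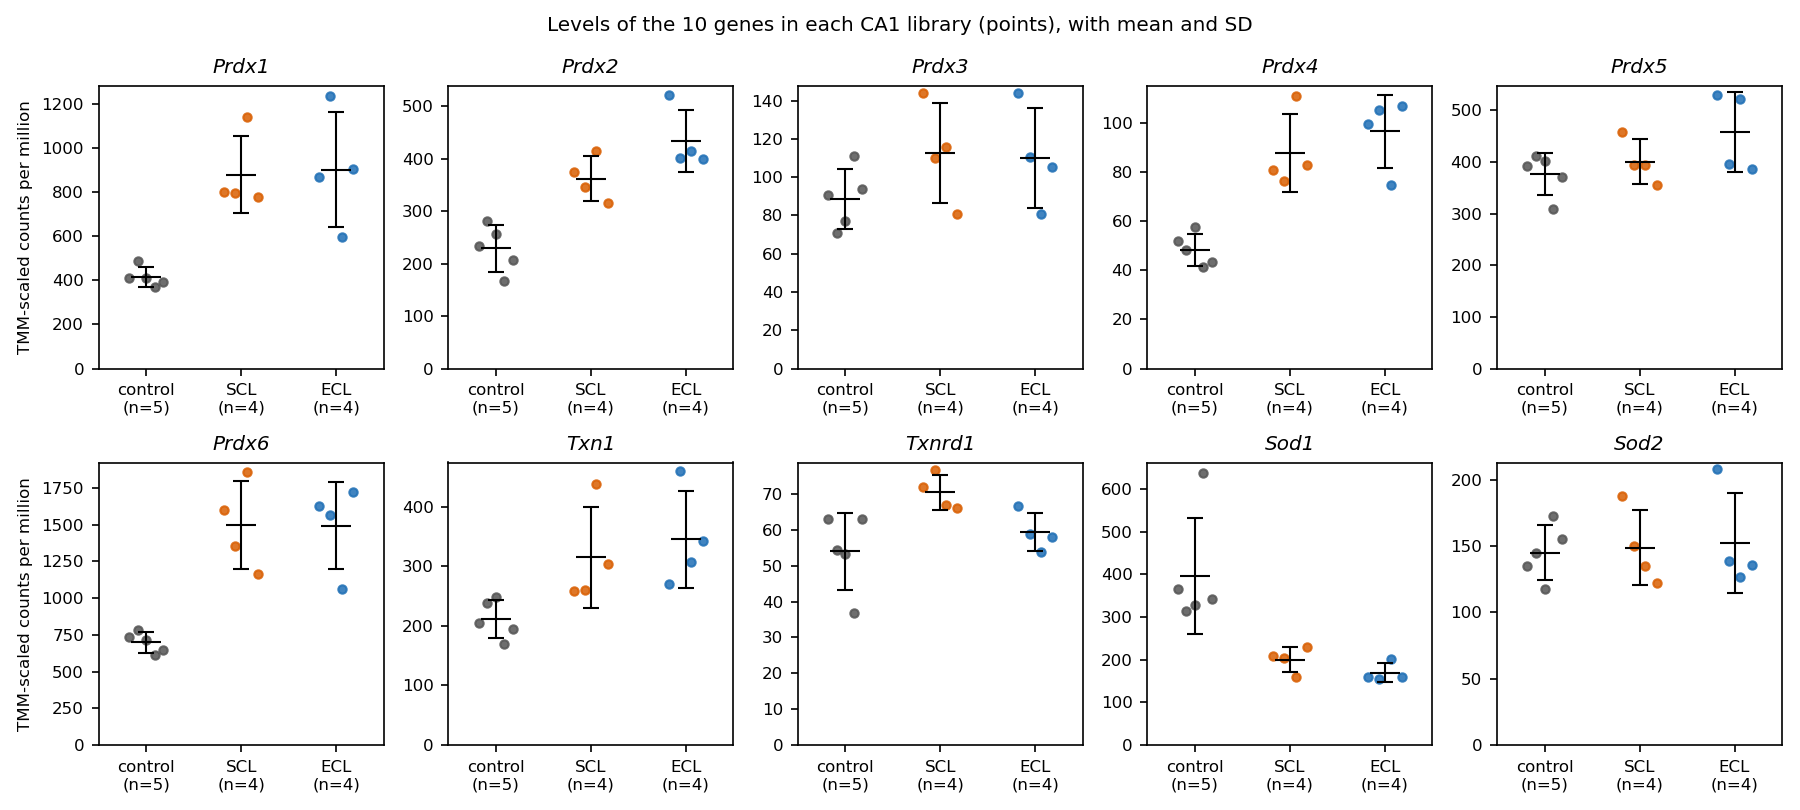
CPM (TMM scaled, vertical axes from 0, a separate scale for each gene) of the 10 genes in each library of the 3 groups on the horizontal axes, with bars for mean and SD. Prdx1, Prdx2, Prdx4, Prdx6 and Txn1 lie higher in every lesioned library than in every control, Sod1 lies lower in every lesioned library, and Sod2 overlaps between all groups.

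Prdx6 had the highest count of the 10 genes. It encodes the peroxiredoxin that works with glutathione rather than thioredoxin and that also has phospholipase activity, and it lies on chromosome 1 of GRCm38 from 161240112 to 161251219. Prdx6 was at 735, 784, 713, 613 and 645 CPM in control replicates 1 to 5. It was at 1597, 1358, 1860.1 and 1166 CPM after SCL, and at 1629, 1562, 1059 and 1724 CPM after ECL. Every lesioned library was above every control, and the lowest lesioned library, ECL replicate 3, was still well above the highest control. The mean went from 698 ± 68.8 CPM (SD, 5 controls) to 1495 ± 300.4 CPM in the 4 SCL and 1493 ± 297 CPM in the 4 ECL libraries. The log2 fold change was 1.10 after both lesions (SE 0.16 each), with an adjusted p of 0.00156 after SCL and 0.000454 after ECL (edgeR).

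Prdx1, a cytosolic and nuclear peroxiredoxin that takes its electrons from thioredoxin, lies on chromosome 4 from 116685544 to 116700822. Control libraries held 413, 490, 409, 371 and 393 CPM of Prdx1. After SCL it was at 802, 797, 1140.0 and 778 CPM, and after ECL at 869, 1239, 598 and 907 CPM. The lesioned libraries again lay above all controls, with SCL replicate 3 and ECL replicate 2 highest and ECL replicate 3 lowest among them. Prdx1 rose by a log2 fold change of 1.08 after SCL (95% interval 0.75 to 1.42, adjusted p = 0.00152, edgeR) and of 1.13 after ECL (0.73 to 1.52, adjusted p = 0.000836). Without SCL replicate 3 its value after SCL was 0.94 (adjusted p = 0.00571).

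Some reads of Prdx1 may be shared with pseudogene copies. The processed pseudogenes Gm21399 and Gm7204 held 4.58% and 1.57% as many counts as Prdx1. Gm21399 rose by 1.28 after SCL (adjusted p = 0.00177, edgeR) and by 1.41 after ECL (adjusted p = 0.000767). Gm7204 was at 4.57 to 6.89 CPM in controls, 12.1 to 18.8 CPM after SCL and 8.61 to 17.1 CPM after ECL. Its controls lay near or under the minimum mean normalized count of 150. In the ECL comparison it passed that minimum through the ECL libraries, so no test of it is given. Gm21399 was the gene most like Prdx1 over the 13 libraries. Only 91.2% of the 50-base stretches of Prdx1 occur in no other annotated transcript.

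Prdx2, the cytosolic peroxiredoxin known from neurons and red blood cells, lies on chromosome 8 from 84969587 to 84974834. It was at 235, 282, 257, 167 and 208 CPM in controls, at 374, 345, 416 and 315 CPM after SCL, and at 521, 401, 415 and 399 CPM after ECL. Each ECL library and each SCL library was above the highest control, and ECL replicate 1 stood above all the others. Prdx2 rose by 0.66 on the log2 scale after SCL (95% interval 0.30 to 1.01, adjusted p = 0.0132, edgeR) and by 0.93 after ECL (0.57 to 1.28, adjusted p = 0.00134). Without control replicate 4, the lowest control, the values were 0.55 and 0.82 (adjusted p = 0.0170 and 0.00162). Of its exon bases 11.5% are shared with Junb and Rnaseh2a on the opposite strand, and the counting did not use strand. Junb was at 8.41 to 35.6 CPM in controls, 12.1 to 20.8 CPM after SCL and 14.97 to 28.8 CPM after ECL. Rnaseh2a was at 11.2 to 23.8, 19.0 to 23.9 and 17.1 to 27.7 CPM in the same order, so both lay far below Prdx2 and overlapped between groups.

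Prdx4, the peroxiredoxin of the endoplasmic reticulum, where it takes part in oxidative protein folding, lies on chromosome X from 155323918 to 155340754. Controls held 51.8, 48.2, 57.5, 41.3 and 43.3 CPM, SCL cultures 81.1, 76.6, 111 and 82.8 CPM, and ECL cultures 99.8, 105, 74.8 and 107 CPM. The lesioned libraries did not overlap with the controls. Prdx4 rose by 0.86 after SCL (95% interval 0.53 to 1.19, adjusted p = 0.00338, edgeR) and by 1.01 after ECL (0.67 to 1.34, adjusted p = 0.000584). By the column headings, 3 of 5 controls, 3 of 4 SCL and 1 of 4 ECL libraries were female. With a term for sex, the values of this X-linked gene were 0.86 and 1.00 (adjusted p = 0.00617 and 0.00172).

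Txn1, the cytosolic thioredoxin that restores most peroxiredoxins, lies on chromosome 4 from 57943373 to 57956411. It was at 205, 239, 249, 170.2 and 195 CPM in controls, at 258, 260.2, 439 and 304 CPM after SCL, and at 271, 459.9, 308 and 343 CPM after ECL. All 8 lesioned libraries were above the highest control, though SCL replicates 1 and 2 were close to it, and SCL replicate 3 and ECL replicate 2 were highest, as they were for Prdx1. Txn1 rose by 0.57 on the log2 scale after SCL (95% interval 0.18 to 0.96, adjusted p = 0.0358, edgeR) and by 0.71 after ECL (0.35 to 1.08, adjusted p = 0.00814). The call after SCL was lost without SCL replicate 3 (0.37, adjusted p = 0.128), without SCL replicate 4 (0.59, adjusted p = 0.0524), and without control replicate 1, 4 or 5 (0.56, 0.49 and 0.54, with adjusted p = 0.0715, 0.0637 and 0.0790). It was also lost when the fit carried an offset for length and GC content of the genes, which ended the call after ECL too (0.23, adjusted p = 0.381, and 0.35, adjusted p = 0.138). Txn-ps1, a pseudogene copy of Txn1, was at 2.74 to 3.71 CPM in controls, 3.85 to 6.13 CPM after SCL and 2.80 to 4.87 CPM after ECL. Some reads may be shared between Txn1 and this copy.

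Txnrd1, the cytosolic thioredoxin reductase, a selenoenzyme, lies on chromosome 10 from 82833951 to 82897712. Its controls were at 63.0, 54.3, 53.2, 36.7 and 63.2 CPM, SCL cultures at 71.9, 76.8, 67.0 and 66.2 CPM, and ECL cultures at 66.5, 58.8, 54.0 and 58.2 CPM. The 4 SCL libraries lay just above the highest control, while ECL and control libraries overlapped. Txnrd1 was called in neither comparison, with log2 fold changes of 0.38 after SCL (95% interval 0.03 to 0.73, adjusted p = 0.102, edgeR) and 0.14 after ECL (-0.22 to 0.50, adjusted p = 0.560). When 1 library was left out, these values ranged from 0.26 to 0.44 and from 0.02 to 0.20, without a call. With TMM factors over all symbols the value after SCL was 0.58 and passed the threshold (adjusted p = 0.0393), and with the length and GC offset it was 0.48 (adjusted p = 0.0448).

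Sod1, the copper and zinc superoxide dismutase, went the other way. The gene lies on chromosome 16 from 90220754 to 90226329. Control libraries held 365, 314, 327, 637 and 341 CPM. After SCL they held 208, 203, 160.5 and 229 CPM, and after ECL 158, 156, 202 and 159.9 CPM. Every lesioned library was below the lowest control, and control replicate 4 stood far above the other controls. The mean went from 397 ± 136 CPM (SD, 5 controls) to 200.1 ± 28.6 CPM in the 4 SCL and 169 ± 22.3 CPM in the 4 ECL libraries. Sod1 fell by 0.98 on the log2 scale after SCL (SE 0.21, adjusted p = 0.00650, edgeR) and fell by 1.22 after ECL (SE 0.21, adjusted p = 0.00103), a level in controls 1.98 and 2.33 times that after the lesions. Without control replicate 4 it fell by 0.76 and fell by 0.99 (adjusted p = 0.00407 and 0.000284).

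Gm8566, a processed pseudogene of Sod1 with 12.3% as many counts, fell by 1.17 after SCL (adjusted p = 0.00743, edgeR) and fell by 1.44 after ECL (adjusted p = 0.00165), and reads of the 2 genes may be exchanged between them. The annotation of Sod1 also holds a transcript that keeps an intron, of 3970 bases against 641 bases of the principal transcript, and counts per gene do not separate the transcripts. Ccs, named here after its values were seen, encodes the chaperone that loads copper into Sod1. It rose by 0.99 after SCL (adjusted p = 0.0142) and by 1.02 after ECL (adjusted p = 0.00802), opposite to Sod1.

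Sod2, the manganese superoxide dismutase of the mitochondrial matrix, lies on chromosome 17 from 13006846 to 13040063. It was at 118 to 173 CPM in controls, 122 to 188 CPM after SCL and 126 to 208 CPM after ECL, and the groups overlapped widely. Its log2 fold changes were 0.04 (95% interval -0.29 to 0.37, adjusted p = 0.871, edgeR) and 0.08 (-0.28 to 0.44, adjusted p = 0.762). Of its 50-base stretches 79.0% occur in no other annotated transcript, the lowest share of the 10 genes.

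Prdx3 and Prdx5 are the peroxiredoxins of mitochondria, Prdx5 being found in peroxisomes and cytosol too. Prdx3, on chromosome 19 from 60864051 to 60874556, was at 71.0 to 111 CPM in controls, 80.8 to 144 CPM after SCL and 80.5 to 144 CPM after ECL. Its log2 fold changes were 0.35 (95% interval -0.02 to 0.72, adjusted p = 0.154, edgeR) and 0.32 (-0.06 to 0.70, adjusted p = 0.199). Those intervals reach well above 0 and do not show that Prdx3 kept its level. Prdx5, on the same chromosome from 6906697 to 6910106, was at 309 to 411 CPM in controls, 355 to 459 CPM after SCL and 386 to 529 CPM after ECL. It had values of 0.09 (-0.21 to 0.39, adjusted p = 0.678, edgeR) and 0.29 (-0.03 to 0.61, adjusted p = 0.167), and 19.1% of its exon bases are shared with Trmt112 on the opposite strand. With the length and GC offset, Prdx5 was at -0.19 after SCL and -0.06 after ECL, again without a call.

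**Figure D2:**
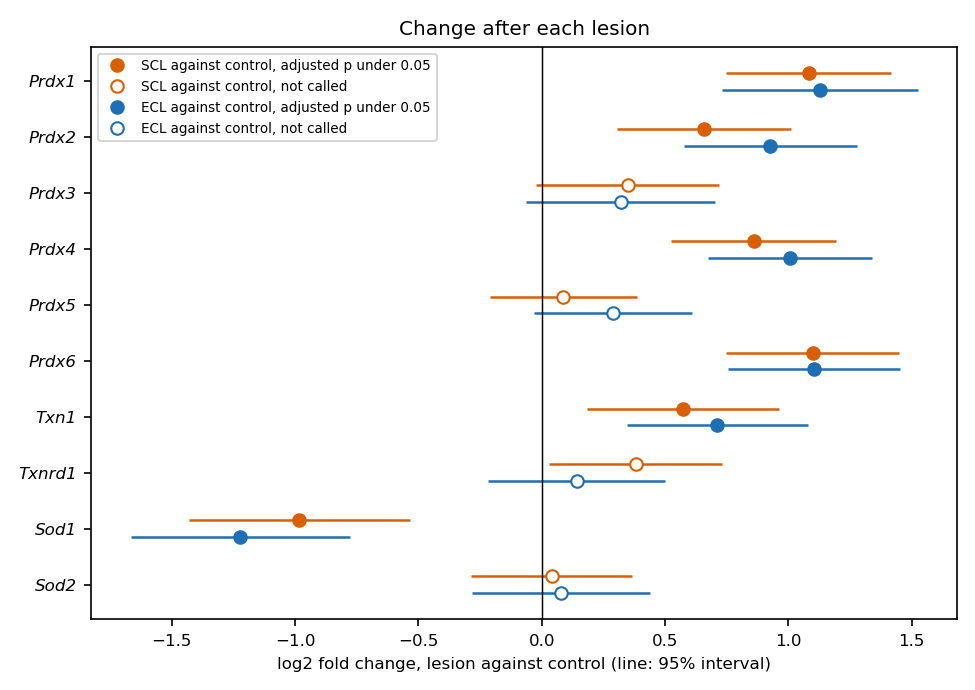
Log2 fold change against control (horizontal axis) of each of the 10 genes (vertical axis) after SCL and ECL, with 95% intervals as lines and filled points for an adjusted p under 0.05. Sod1 lies left of 0, at -0.98 and -1.22, the 5 genes called higher lie right of 0, and the open points of Prdx3, Prdx5, Txnrd1 and Sod2 lie closest to 0.

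The lesions were also compared directly. None of the 10 genes was called between ECL and SCL, against 0% of all genes tested, none had an unadjusted p under 0.05 and none separated the 2 groups without overlap, as 3.85% of all 12478 genes tested did. The test called 0 of those genes (edgeR), with 918, or 7.36%, at an unadjusted p under 0.05, and DESeq2 called 65, or 0.531% of the 12232 genes it adjusted. The largest differences were 0.27 for Prdx2 (95% interval -0.05 to 0.59, adjusted p = 0.730, edgeR), -0.24 for Txnrd1 (-0.50 to 0.03, adjusted p = 0.704) and -0.23 for Sod1 (-0.56 to 0.10, adjusted p = 0.767). For Prdx6 the difference was 0.01, with an interval of -0.44 to 0.45, and for Prdx1 it was 0.05, with an interval of -0.44 to 0.54. These intervals do not show that the lesions acted alike.

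Levels were compared between genes only per kilobase of exon sequence. In controls, Txn1 was highest at 202 ± 30.9 CPM per kilobase (SD, n = 5). Prdx5 followed at 176 ± 19.2, Prdx6 at 145 ± 14.3 and Prdx1 at 136 ± 14.7 CPM per kilobase, in that order in each of the 5 controls. Their ranges overlapped with that of the next gene all the same. Sod1 at 100.0 ± 34.2 was above Prdx2 at 75.3 ± 14.6 CPM per kilobase in 3 of 5 controls only, so these neighbours were not separated. Prdx3 at 60.0 ± 10.6 overlapped with Prdx2, while Prdx4 at 23.0 ± 3.11, Sod2 at 14.5 ± 2.08 and Txnrd1 at 7.63 ± 1.52 CPM per kilobase were each apart from their neighbours. After the lesions Prdx6 and Prdx1 were at 311 ± 62.5 and 289 ± 57.2 (SCL) and at 311 ± 61.9 and 297 ± 86.4 CPM per kilobase (ECL), against 300.0 ± 81.0 and 329 ± 77.9 for Txn1 (SD, n = 4 each). Sod1 was then at 50.4 ± 7.21 and 42.6 ± 5.62 CPM per kilobase. The order depends on the length used. Per kilobase of the principal transcript Sod1 was first in controls, at 619 ± 212, followed by Prdx5 at 299 ± 32.5 and Prdx6 at 293 ± 28.8, and Txn1 was at rank 4. Per kilobase of the longest transcript Prdx6 was first, at 273 ± 26.9, and Txn1 was at rank 3.

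**Figure D3:**
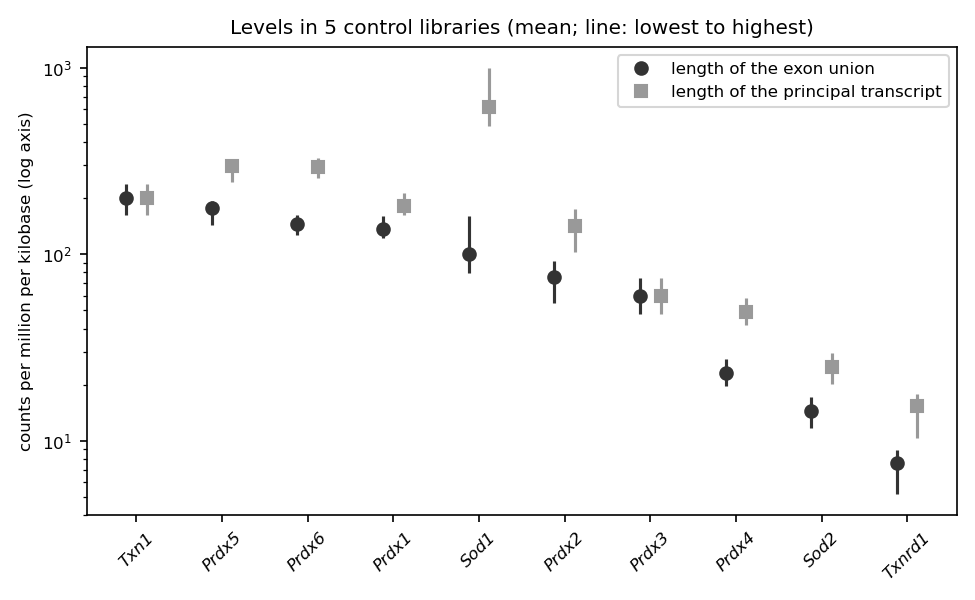
Level of each gene in the 5 controls in CPM per kilobase (vertical log axis), ordered by the level per exon union, with points for the mean and lines from the lowest to the highest library, for 2 choices of gene length. The levels per exon union run from 7.63 for Txnrd1 to 202 for Txn1, and Sod1 moves to 619 with the length of its principal transcript.

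The genes that work with peroxiredoxins and thioredoxin were taken from lists of the pathway. Among 20 tested genes of the thioredoxin and glutaredoxin system, after SCL 6 rose and 0 fell past the threshold, and after ECL 8 and 0, with list medians of 0.33 in both. The shares over all genes tested were 13% higher and 11.6% lower after SCL, and 15.1% and 12.4% after ECL, and they hold for the lists below too. Txn2, the mitochondrial thioredoxin, rose by 0.86 after SCL (adjusted p = 0.0117, edgeR) and by 1.21 after ECL (adjusted p = 0.000557), unlike Txnrd2, the mitochondrial reductase, which was at -0.06 and 0.04 and was named after its values were seen. Msrb1, which reduces oxidised methionine, rose by 0.81 (adjusted p = 0.0189) and 1.09 (adjusted p = 0.00192). The call of Msrb1 after SCL was lost without SCL replicate 3 (0.68, adjusted p = 0.0715) and with the length and GC offset (0.46, adjusted p = 0.0561), which gave 0.69 after ECL (adjusted p = 0.00408). Txndc12, a thioredoxin-fold protein of the endoplasmic reticulum, rose by 0.77 (adjusted p = 0.00614) and 0.76 (adjusted p = 0.00348), and Glrx, a glutaredoxin, by 0.82 (adjusted p = 0.0191) and 0.93 (adjusted p = 0.00399). The call of Glrx after SCL was lost without SCL replicate 1 (0.65, adjusted p = 0.0633) or 3 (0.69, adjusted p = 0.0682).

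Of 8 tested genes of superoxide and hydrogen peroxide removal, 6 were called higher after SCL and 7 after ECL, with 0 lower and medians of 0.83 and 0.91. Gpx4, the glutathione peroxidase of lipid peroxides, rose by 1.09 (adjusted p = 0.0194, edgeR) and 1.73 (adjusted p = 0.000489), though only 65.3% of its 50-base stretches are its own, and the call after SCL was lost without SCL replicate 3. Gpx1, the main cytosolic glutathione peroxidase, rose by 0.70 (adjusted p = 0.00587) and 0.81 (adjusted p = 0.00135), and with the length and GC offset by 0.36 in both (adjusted p = 0.0218 and 0.0164). Gpx8, of the endoplasmic reticulum, rose by 0.96 (adjusted p = 0.00377) and 1.05 (adjusted p = 0.00437). Gpx3, a secreted glutathione peroxidase, rose after ECL by 1.56 (adjusted p = 0.000359) and was at 0.46 after SCL (adjusted p = 0.208). It was at 352 CPM in SCL replicate 3 against 170.0 to 179.8 CPM in the other SCL libraries, and the value without that replicate was 0.15 (adjusted p = 0.696). The difference between the lesions was 1.10 and was not called (adjusted p = 0.361). Catalase, the gene Cat, was the list member that was called in neither comparison, at -0.16 and -0.24.

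In the list of the NRF2 pathway, 4 of 19 tested genes were called higher and 2 lower after SCL, against 13% and 11.6% of all genes tested. After ECL 3 were called higher and 5 lower, against 15.1% and 12.4%. The medians were 0.03 and -0.16. The share called lower after SCL and the share called higher after ECL were near those over all genes, and the others were above them. Taldo1, of the pentose phosphate pathway, rose by 0.79 (adjusted p = 0.00538, edgeR) and 0.81 (adjusted p = 0.00272). G6pdx, which makes NADPH in the first step of that pathway, rose by 0.73 (adjusted p = 0.0360) and 1.01 (adjusted p = 0.00586). Leaving out 1 of 6 libraries ended the call of G6pdx after SCL, with adjusted p up to 0.110, and 13.6% of its exon bases are shared with Ikbkg. Tkt, a transketolase of the same pathway, fell by 0.69 (adjusted p = 0.0128) and fell by 0.89 (adjusted p = 0.000898). Gsr, the glutathione reductase, was at -0.41 after SCL (adjusted p = 0.0676) and fell by 0.67 after ECL (adjusted p = 0.00708). With no minimum count, the call of Tkt after SCL (-0.48, adjusted p = 0.0806) and that of Gsr after ECL (-0.47, adjusted p = 0.0863) were lost. Gsr was called after SCL with all libraries in 1 fit (-0.41, adjusted p = 0.0458, edgeR). It was also called there with the length and GC offset (-0.58, adjusted p = 0.0218) and with a block by replicate added (-0.59, adjusted p = 0.0303). In the other 19 of 22 alternatives Gsr was not called after SCL.

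Among the sources of superoxide, 3 of 8 tested genes were called higher after each lesion and 0 lower, with medians of 0.35 and 0.19. They were Cyba and Rac2, parts of the phagocyte NADPH oxidase, and Rac1, a small GTPase that activates it. Cyba rose by 1.12 (adjusted p = 0.00772, edgeR) and 1.27 (adjusted p = 0.00161). Rac2 was at 5.4 ± 2.3 CPM in the 5 controls (mean and SD). It was at 14.5 ± 4.7 CPM in the 4 SCL libraries and 13.6 ± 4.1 CPM in the 4 ECL libraries. In both comparisons Rac2 passed the minimum mean normalized count of 150 through the lesioned libraries. No test of it is therefore given, and its calls above rest on that filter. The call of Rac2 was also lost after SCL without SCL replicate 3 and after ECL without ECL replicate 4. Rac1 rose by 0.66 (adjusted p = 0.0125) and 0.60 (adjusted p = 0.00521), with 51.4% of its exon bases shared with Daglb.

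The study also stained the cultures for oxidised RNA, and genes that handle oxidised nucleotides and RNA were therefore counted. After SCL 1 of 9 tested genes was called higher and 2 lower, against 13% and 11.6% of all genes tested, and after ECL 0 of 7 were called higher and 3 lower, against 15.1% and 12.4%. The medians were -0.11 and -0.50. Pcbp1, a protein that binds oxidised RNA, fell by 1.10 (adjusted p = 0.00198, edgeR) and fell by 1.21 (adjusted p = 0.000346). Hnrnpd, another protein that binds oxidised RNA, fell by 0.49 (adjusted p = 0.0256) and fell by 0.81 (adjusted p = 0.00124). Its call after SCL was lost without control replicate 5, SCL replicate 1 or SCL replicate 3, with adjusted p up to 0.0827, and with TMM factors over all symbols or no minimum count (-0.28 in both, adjusted p = 0.152 and 0.281). Ybx1, an RNA-binding protein, was at -0.50 after SCL (adjusted p = 0.0706) and fell by 0.81 after ECL (adjusted p = 0.00869). After SCL it was at -0.32 without control replicate 4 (adjusted p = 0.122) and at -0.58 without control replicate 2 (adjusted p = 0.0471). With the length and GC offset Ybx1 was called after SCL (-0.74, adjusted p = 0.0276), also with a block by replicate added (-0.65, adjusted p = 0.0267). The gene called higher after SCL was Ogg1, the glycosylase that removes oxidised guanine from DNA. It was at 2.13 to 4.79 CPM in controls, 6.51 to 11.6 CPM after SCL and 9.38 to 11.8 CPM after ECL. In the SCL comparison it passed the minimum count through the SCL libraries, so no test of it is given and its call above rests on that filter. In the ECL comparison it did not pass, although its CPM was no lower there. The minimum is set in counts, and the SCL libraries held more of them (median 33773026.5 against 23291778 after ECL). Of its exon bases 10.6% are shared with Camk1.

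**Figure D4:**
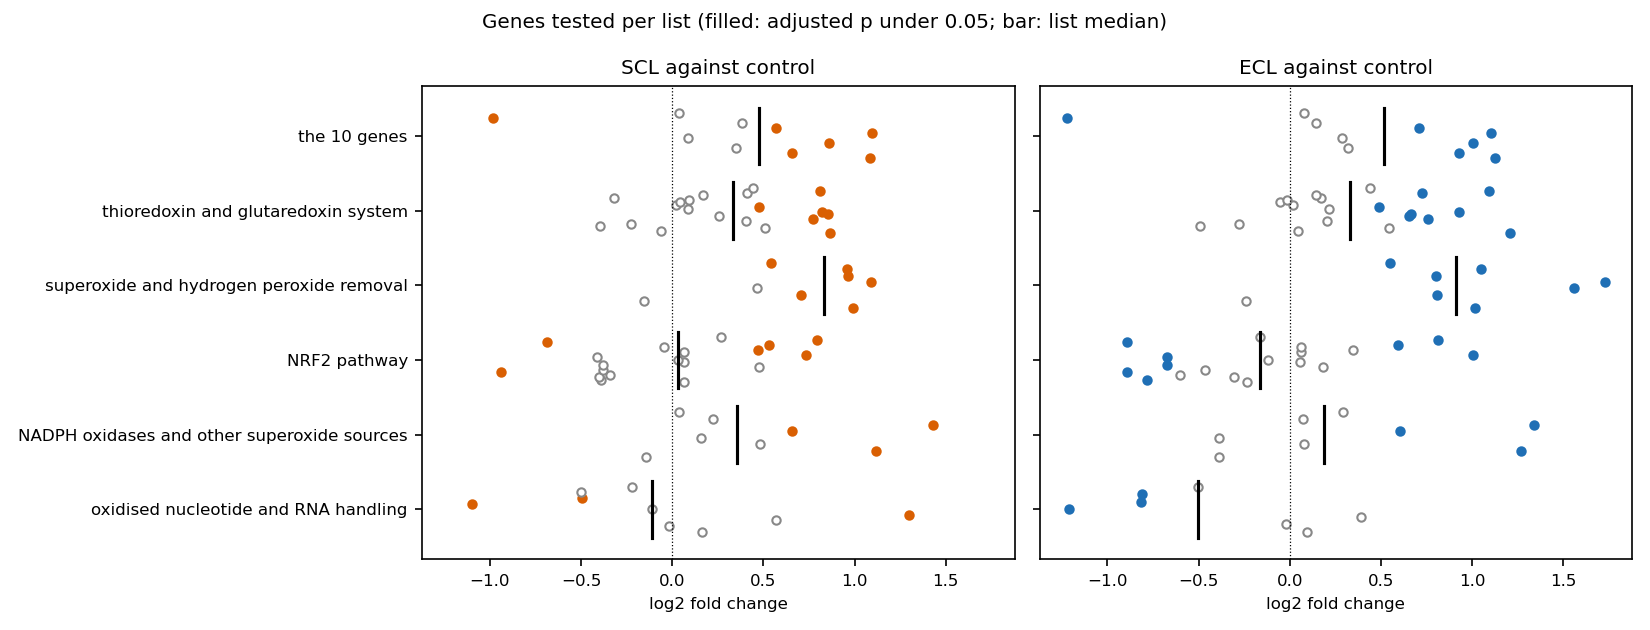
Log2 fold changes against control (horizontal axes) after SCL and ECL of the tested genes of each list (rows), with filled points for an adjusted p under 0.05 and a bar at the list median. In the list of superoxide and hydrogen peroxide removal all filled points lie to the right of 0, with medians of 0.83 and 0.91, while the NRF2 pathway holds filled points on both sides.

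Markers of other cell types moved in the same libraries. The summed level of 15 microglia markers was 1100.3 to 1255 CPM in controls, 2000.1 to 3570.1 CPM after SCL and 1984 to 2740.1 CPM after ECL, with no overlap between lesioned and control libraries, and 14 and 10 of the 15 markers were called higher. SCL replicate 3, in which Prdx1, Prdx4, Prdx6 and Txn1 were highest among SCL libraries and Sod1 was lowest, also had the highest microglia sum. Among ECL libraries, replicate 3 had the lowest Prdx1, Prdx4 and Prdx6, the highest Sod1 and the lowest microglia sum. Prdx2 and Txn1 did not have their lowest ECL value there: Prdx2 was second highest in that library, at 415 CPM, and Txn1 was lowest in ECL replicate 1, at 271 CPM. The controls did not show this order. Control replicate 4 had the lowest Prdx1, Prdx4, Prdx6 and Txn1 and the highest Sod1 of the controls. Its microglia sum was 1253.9 CPM, close to the highest control at 1255 CPM. The part of microglia in these results was not tested. In bulk tissue, more cells of a type and more RNA per cell cannot be told apart.

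The other marker sums overlapped between the groups. The 12 astrocyte markers summed to 9102 to 14798 CPM in controls, 10915 to 14562 CPM after SCL and 9957 to 12916 CPM after ECL, with 5 called higher and 1 lower after SCL, and 4 and 1 after ECL. The 12 neuron markers summed to 4231 to 5159, 3596 to 4711 and 3646 to 5087 CPM, with 0 called higher and 4 lower after SCL, and 1 and 6 after ECL. For the 12 oligodendrocyte markers the sums were 4739 to 6352, 4619.9 to 5902 and 4115 to 6336 CPM, with 2 higher and 0 lower after each lesion. The 12 endothelial and mural markers summed to 77.2 to 166, 84.3 to 125 and 66.3 to 273 CPM, with Cldn5, Cdh5, Ly6c1, Vtn and Kcnj8 at 0 in at least 1 library. All 5 CA1 markers were detected in every library, at 222 to 299, 232 to 265 and 193 to 405 CPM, and the 8 markers of CA3 and the dentate gyrus summed to 108 to 154, 81.9 to 176 and 99.3 to 186 CPM. Among the latter, Dsp and C1ql2, which mark dentate granule cells, were at 0 in at least 1 library. The others, with the dentate markers Prox1 and Tdo2 among them, were detected in every library.

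**Figure D5:**
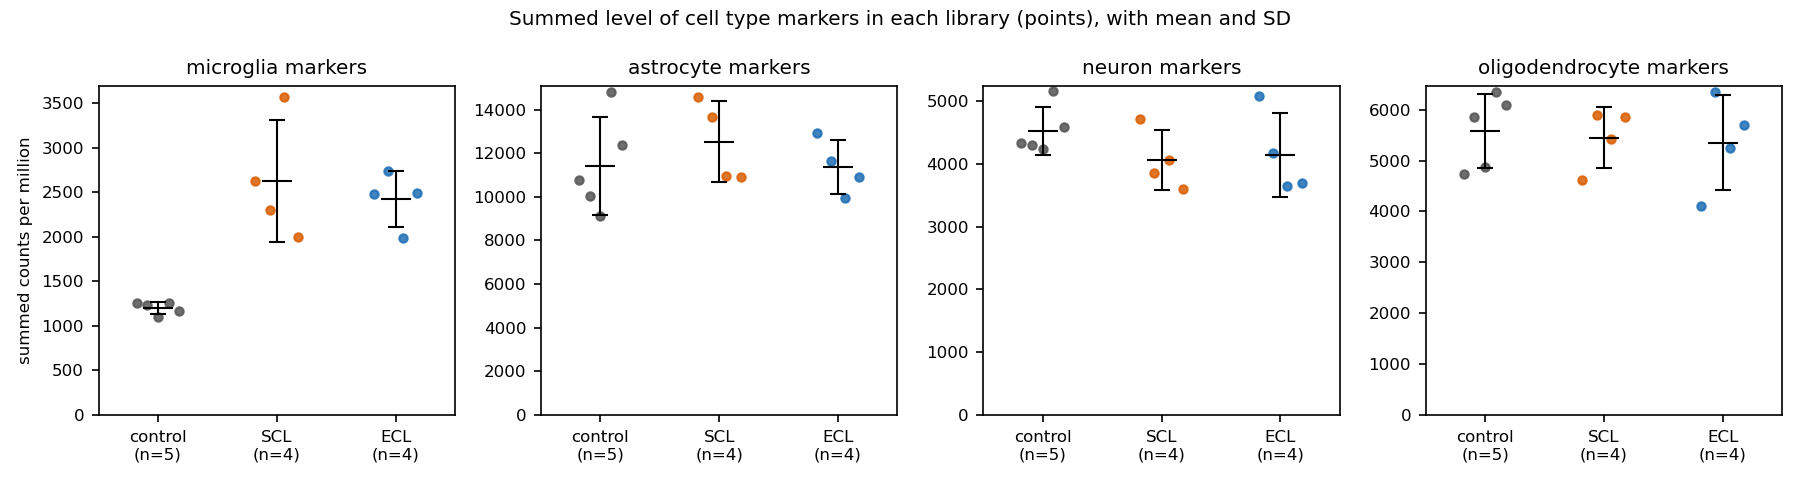
Summed CPM (vertical axes, from 0) of the markers of 4 cell types in each library (points), with bars for mean and SD, in the 3 groups on the horizontal axes. The microglia sums of the lesioned libraries start at 1984, above the highest control at 1255, and the other sums overlap between groups.

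Over the 13 libraries, levels of the genes called higher ran together and opposite to Sod1. Correlations of log2 CPM were computed with 11871 genes and are descriptions, since the libraries share the group differences given above. Prdx4 and Prdx6 were the members most like each other (Pearson r = 0.96), and Prdx1 was most like Prdx6 among the members (r = 0.96). Sod1 was the member least like Prdx1, Prdx2, Prdx4, Prdx6 and Txn1, with r from -0.95 for Prdx2 to -0.85 for Txn1. Prdx3 and Sod2, both mitochondrial, were most like each other among the members (r = 0.77). Many other genes were closer to each: Sod2 was at rank 603 for Prdx3, and Prdx3 at rank 209 for Sod2. Among the genes called higher, the closest member was at rank 18 for Prdx1, 356 for Prdx2 and 6 for Prdx4. It was at rank 15 for Prdx6 and 153 for Txn1. Over all genes, the one most like Prdx6 was Ctsb, a lysosomal cathepsin (r = 0.98), and the one most like Prdx4 was Psph, an enzyme of serine synthesis (r = 0.98). Prdx2 was closest to S100a16 (r = 0.99), Prdx5 to Bsg (r = 0.96), Prdx3 to Rpe (r = 0.97) and Txn1 to Serf1 (r = 0.98). Sod1 was closest to Zmynd8 (r = 0.98), Sod2 to Ttc33 (r = 0.94) and Txnrd1 to Usp53 (r = 0.90).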

How the data were processed

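Counts per gene were deposited by the authors, 1 table per CA1 library (5 control, 4 SCL, 4 ECL). According to the study's methods, the authors trimmed reads with cutadapt 3.5, mapped them to mm10 with STAR 2.7.8a and counted them with featureCounts 2.0.1, without regard to strand, on GENCODE M25 gene models. Among counts of 1 to 20, the share of even values per library was 63.0% to 74.3%, which fits counting of both mates of a read pair. The labels give the tissue as CA1, although the extraction text names the dentate gyrus. Replicate numbers are those of the sample titles, and the column headings number the libraries differently. The protocol names 1 culture per library, and nothing says which cultures came from the same animal.

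Each comparison was fitted on its 2 groups with edgeR 4.0.16 in R 4.3.3 (quasi-likelihood test, two-sided), with TMM factors over the genes tested, a minimum mean normalized count of 150, and Benjamini-Hochberg adjustment over all genes tested at 0.05. The test was checked on simulated counts. DESeq2 1.42.0 was an alternative. All intervals are 95% intervals of the fit. Gene positions, lengths and shared 50-base stretches are from GENCODE M21 on GRCm38, which had 1 gene for 53186 of the 55291 symbols.

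All members were named. Of each pathway list, up to 4 genes called after either lesion with the smallest adjusted p were named, and for each member the gene with the highest correlation. Copies were named only where they were processed pseudogenes holding at least 1% of a member's counts or overlapped its exons. Shared repeat stretches were not followed further. The members and lists were chosen with earlier results of these data known. Alternatives covered the scaling, the filter, the threshold, a sex term, blocks by replicate or heading number, an offset for length and GC content, halved counts and leaving out each library. The length of the principal transcript and the block by heading number were added after seeing the data.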

Additional observations from a re-analysis of the deposited data

Results flagged for a closer look

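The levels of the 10 genes were checked in each of the 3 groups for a library far from the others, by the gap to its nearest neighbour as a share of the range of the group. Of 30 groups 5 were past Dixon's limit, where chance gives about 1 in 20. Prdx1 was high in SCL replicate 3 (1140.0 CPM, gap 0.935 of the range), and Prdx2 was high in ECL replicate 1 (521 CPM, gap 0.865). Sod1 was high in control replicate 4 (637 CPM, gap 0.842) and in ECL replicate 3 (202 CPM, gap 0.906). Sod2 was high in ECL replicate 1 (208 CPM, gap 0.847). The calls of Prdx1, Prdx2 and Sod1 after both lesions were kept without any 1 of these libraries.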

How the results depend on the processing

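The number of the 10 genes called was 4 to 8 after SCL, 5 to 7 after ECL and 0 between the lesions under every alternative run. Prdx1, Prdx4, Prdx6 and Sod1 kept their calls in all 22 alternatives of both lesion comparisons, and Prdx2 lost its call after SCL only at a threshold of 0.01. Txn1 lost it in 10 of 22 after SCL and in 2 of 22 after ECL.

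The number of genes called after SCL was 5390 with no minimum count, 1050 at a threshold of 0.01 and 1824 with the heading number as a block, and 1672 to 2828 when 1 library was left out, lowest without SCL replicate 3, then without SCL replicate 2 (1904). After ECL it was 8034 and 1495 for the first 2 of these, and 2094 to 3091 when 1 library was left out. Between the lesions it was 65 with DESeq2, 217 with no minimum count, 1 with all libraries in 1 fit, 1 with a sex term, and 0 to 54 when 1 library was left out, at 54 without SCL replicate 3 and 2 without ECL replicate 4. In the order of levels, 6 of 10 genes kept their rank with the length of the longest transcript. The cause of these changes was not tested. Among other named genes, the length and GC offset also ended the call of G6pdx after SCL (0.59, adjusted p = 0.0662, edgeR), and the heading number as a block ended those of Msrb1, Gpx4, G6pdx and Hnrnpd after SCL (adjusted p = 0.0527, 0.0528, 0.0659 and 0.0641). With no minimum count Gpx3 was called after SCL (0.65, adjusted p = 0.00669).

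Values near 0 changed sign. With the length and GC offset, Prdx5 was at -0.19 after SCL and -0.056 after ECL, and at -0.17 and -0.052 with the replicate block as well, and Prdx3 was at -0.0060 after ECL. When 1 library was left out, Sod2 ranged over -0.093 to 0.12 for SCL and over -0.096 to 0.16 for ECL. Between the lesions Prdx6 was at -0.00083 with DESeq2, -0.0019 with all libraries in 1 fit and -0.0038 with the heading number as a block, and Prdx3 at 0.26 with a sex term. When 1 library was left out, that difference ranged from -0.14 to 0.20 for Prdx1, -0.17 to 0.12 for Prdx3, -0.093 to 0.14 for Prdx6, -0.023 to 0.34 for Txn1 and -0.14 to 0.18 for Sod2.

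The replicate numbers did not pair the samples. Deviations of same-numbered libraries from their group means correlated at -0.13 to 0.23 between SCL and controls and at -0.15 to 0.42 between ECL and controls, and at -0.13 to 0.51 between ECL and SCL, highest for the libraries numbered 1. With the replicate block 2358 genes were called after SCL and 2693 after ECL, and of the 10 genes 5 and 6, Txn1 being the one no longer called after SCL (0.52, adjusted p = 0.0519, edgeR). Among the other named genes, Glrx was no longer called after SCL with that block (0.76, adjusted p = 0.0586).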
